A study of Mus musculus with 12 samples.

Results

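Double mutant Ly6G+ cells were compared with wild type Ly6G+ cells, sorted myeloid cells of mouse bone marrow, by RNA sequencing of 2 libraries per group. Of the 28987 genes in the table, the 11744 with at least 1 TPM in at least 2 of these 4 libraries were compared. TPM is the length-corrected share of a gene among a library's transcripts, on a scale common to all libraries. The double mutant group has the genotype CBL/RUNX1 mutant and the other group is wild type, both on a C57BL/6 background. Both groups came from individual mice, and per the labels' protocols the mutant clone and the Ly6G+ cells were isolated by FACS. The alleles, the way the mutations were introduced, the age of the mice and the gate used for wild type cells are not given in the sources used here. The other 8 libraries of the series, 12 in all, are haematopoietic stem and progenitor cells (HSPC) selected through CD117. Of these, the 2 double mutant and the 2 wild type HSPC libraries are used below as a second cell type with the same pair of genotypes.

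CBL is a ubiquitin ligase that tags activated receptor and cytokine signalling proteins for degradation, and RUNX1 is a DNA-binding transcription factor of the Runt family that is needed for blood stem cells and for the maturation of myeloid cells. Mutations of both genes occur in human myelodysplastic syndromes and myeloid leukaemias, of which myelodysplastic syndrome is named in the title of the series. Ly6G is a surface protein of mouse granulocytes, and maturing neutrophils switch in turn from primary to secondary and tertiary granule proteins, then to chemokine and formyl peptide receptors and to the subunits of the NADPH oxidase.

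Both double mutant libraries had far more Runx1, Runx3 and Ngfr mRNA than the wild type libraries and almost no Stk39 and Cldn1 mRNA. Major histocompatibility complex (MHC) class II genes, 2 class I genes of the H2-Q cluster and several stefin A genes were higher in both double mutant libraries. Receptors and adhesion proteins of mature neutrophils, the genes Ifitm1, Ifitm2 and Ifitm6 and immunoglobulin genes were lower in both. Of the 11744 genes, 195 (1.66%) lay at least 2-fold higher in both double mutant libraries than in both wild type libraries and 365 (3.11%) at least 2-fold lower, measured as the log2 distance between the nearest libraries of the groups after scaling. The groups did not overlap, at any distance, for 3704 genes that were higher (31.5%) and 3658 that were lower (31.1%). The median log2 fold change over all genes was 0.03.

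No gene passed limma's test at an adjusted p under 0.05 (0 of 11744, 0%), while 1648 had an unadjusted p under 0.05, 737 higher and 911 lower. The test has 2 residual degrees of freedom and the double mutant libraries differ widely from each other. Without double mutant library 1, 1238 genes passed, 6975 passed without double mutant library 2, and 1 gene passed when wild type library 1 or 2 was left out. In a fit of all 12 libraries, which pools the spread of 6 groups, 979 of 13155 genes passed (7.44%). In the account below, "higher" and "lower" therefore state where the libraries lie, and the adjusted p-values come from limma's fit of the 4 libraries unless the fit of 12 is named. The TPM of single libraries are given as deposited, while fold changes are of log2(TPM + 1) after scaling, which divides double mutant libraries 1 and 2 by 1.53 and 1.01 and wild type libraries 1 and 2 by 0.818 and 0.795. In unscaled TPM the median of all genes was 0.58 and the split of 2-fold genes was 442 higher and 179 lower, so the balance of higher and lower genes depends on the scaling.

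The double mutant libraries did not depart from wild type to the same extent. Library 1 lay at least 2-fold above the wild type mean for 1937 genes and below it for 2378, library 2 for 453 and 630 genes. Between the double mutant libraries, 1248 genes were at least 2-fold higher in library 1 and 1768 in library 2, against 106 and 120 genes between the wild type libraries. Over all genes, log2 differences between the replicates of a group had an SD of 0.984 in the double mutant and 0.353 in wild type. In unscaled log2(TPM + 1), library 1 correlated at 0.889 with library 2 and at 0.839 and 0.829 with the wild type Ly6G+ libraries. With the double mutant HSPC libraries it correlated at 0.899 and 0.882, thus about as closely as with its own replicate. Library 2 correlated at 0.955 and 0.959 with wild type Ly6G+ and at 0.861 and 0.848 with double mutant HSPC. The reason was not tested. Among the 365 shared lower genes, library 2 was the nearer to wild type for 311 and library 1 for 47. Most of the shared differences were thus limited in size by library 2. The 12419 genes at 1 TPM or more in double mutant library 1 and 11480 in library 2 compare with 11194 and 11172 in wild type libraries 1 and 2, and the number of reads behind these values is not given in the sources used here. As a look at the labelled cell type, 11 neutrophil markers were all detected in all 4 libraries. They summed to 85380.4 and 311942 TPM in the double mutant, against 404233 and 398294 TPM in wild type. In HSPC the same markers summed to 87154.5 and 99171.4 TPM in the double mutant, against 320850 and 346006 TPM in wild type. This sum therefore cannot tell Ly6G+ cells from the HSPC of this series, and it does not settle the labelled cell type.

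**Figure D1:**
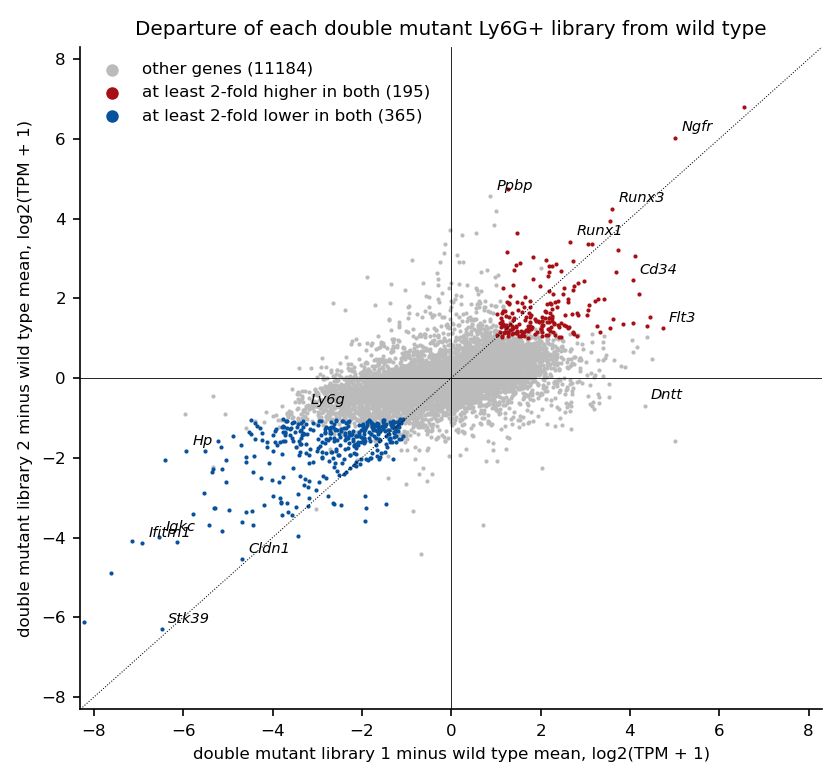
Each point is 1 of 11744 genes, placed by the log2(TPM + 1) difference of double mutant library 1 (horizontal) and of double mutant library 2 (vertical) from the wild type mean, with genes at least 2-fold higher (195) or lower (365) in both libraries coloured. The cloud is stretched along the horizontal axis, library 1, and the shared genes such as Ngfr, Runx3 and Stk39 lie near the dotted diagonal of equal departure.

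The mRNA of both mutated genes was above wild type in both double mutant libraries. Cbl had 144 and 124 TPM in the double mutant libraries, against 42.6 and 45.0 TPM in the wild type libraries. Its log2 fold change of 0.97 with an SE of 0.28 (limma, adjusted p = 0.324) lay below 2-fold after scaling, although the groups did not overlap. Runx1 had 126 and 142 TPM in the double mutant, against 11.1 and 8.77 TPM in wild type, a log2 fold change of 3.04 with an SE of 0.34 (limma, adjusted p = 0.218). The table does not separate the genes at their own loci from any introduced sequence, which holds for Runx3 too. Runx3 (ENSMUSG00000070691, chromosome 4, 135120652 to 135177990 of GRCm38, as for the other gene positions), a paralogue of Runx1 that binds the same DNA motif, had 143 and 147 TPM in the double mutant, against 5.59 and 5.29 TPM in wild type. Its log2 fold change of 3.93 with an SE of 0.29 (limma, adjusted p = 0.161) was the second largest upward shift among the 24 genes furthest from wild type. Runx1 and Runx3 share sequence in the Runt domain, and how reads from shared sequence were divided between them is not stated. In the fit of 12 libraries Runx1 (adjusted p = 0.01) and Runx3 (adjusted p = 0.0042) passed and Cbl did not (adjusted p = 0.086).

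The windows before Runx1 and Runx3 are printed because these 2 RUNX genes were high together and each has a RUNX motif pair near a start site, and those of Ifi205 and Ifi44 because these interferon-inducible genes stood near the top of the upward list. They run from 250 bases before to 50 after a transcription start, in the RefSeq annotation of GRCm38.p6, 5′ to 3′ on the gene's strand. Capitals mark the motifs searched on both strands, TGTGGT for RUNX factors and GAAANNGAA for interferon regulatory factors (IRF), where N is any base. The motifs share no base in these windows.
Runx3 promoter, chr4:135120395-135120694, plus strand: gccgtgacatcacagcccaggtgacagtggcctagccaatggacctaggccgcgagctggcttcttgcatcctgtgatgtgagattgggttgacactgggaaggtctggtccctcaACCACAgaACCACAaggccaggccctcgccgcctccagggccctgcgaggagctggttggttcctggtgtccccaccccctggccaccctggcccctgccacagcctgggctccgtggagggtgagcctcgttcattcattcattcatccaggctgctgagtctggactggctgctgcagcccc
Runx1 promoter, chr16:92826025-92826324, minus strand: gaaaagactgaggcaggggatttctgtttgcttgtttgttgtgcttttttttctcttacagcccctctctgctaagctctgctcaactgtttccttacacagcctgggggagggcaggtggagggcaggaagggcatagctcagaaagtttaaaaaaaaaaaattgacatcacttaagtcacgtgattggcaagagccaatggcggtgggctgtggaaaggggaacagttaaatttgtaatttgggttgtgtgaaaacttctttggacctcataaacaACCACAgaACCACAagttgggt
Ifi205 promoter, chr1:174031706-174032005, minus strand: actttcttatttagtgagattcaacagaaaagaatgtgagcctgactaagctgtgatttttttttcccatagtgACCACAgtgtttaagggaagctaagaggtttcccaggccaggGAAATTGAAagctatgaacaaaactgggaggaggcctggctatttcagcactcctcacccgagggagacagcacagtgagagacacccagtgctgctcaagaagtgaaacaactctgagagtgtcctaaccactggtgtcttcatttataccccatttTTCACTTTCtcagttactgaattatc
Ifi44 promoter, chr3:151749861-151750160, minus strand: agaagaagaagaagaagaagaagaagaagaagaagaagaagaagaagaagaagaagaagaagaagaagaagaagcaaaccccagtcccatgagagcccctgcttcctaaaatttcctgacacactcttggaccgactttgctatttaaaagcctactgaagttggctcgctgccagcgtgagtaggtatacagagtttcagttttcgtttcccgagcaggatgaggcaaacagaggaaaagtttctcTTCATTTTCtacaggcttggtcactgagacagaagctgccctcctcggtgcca
In both Runx3 and Runx1 the RUNX motif occurs in a close pair, starting 134 and 126 bases before the start in Runx3 and 29 and 37 bases after it in Runx1. Each of these genes has a further start in the annotation whose window holds neither motif. Ifi205 holds 1 RUNX and 2 IRF matches, and Ifi44 has 1 IRF match that begins 3 bases before the start. Over all 32851 promoter windows, 16.8% hold the RUNX motif and 8.56% the IRF motif, and over the windows of the genes compared 13.4% and 7.58%. Of the 195 genes 2-fold higher in both libraries, 147 have a window, and 19.8% of their windows hold the RUNX motif and 15.5% the IRF motif. Of the 365 lower genes, 234 have a window, with 19.7% for RUNX and 9.09% for IRF. Such a match describes letters in a window and says nothing of binding.

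Ngfr (ENSMUSG00000000120, chromosome 11, 95568818 to 95587735), which encodes the p75 neurotrophin receptor, had the largest upward shift among these 24 genes. It had 62.1 and 83.7 TPM in the double mutant libraries, against 0.351 and 0.136 TPM in the wild type libraries, a log2 fold change of 5.52 with an SE of 0.43 (limma, adjusted p = 0.161). Wild type Ly6G+ cells were therefore close to 0, and double mutant library 1 minus library 2 was -1.02 on the log2 scale after scaling, with library 2 the higher. As for Cbl and Runx1, these values do not separate the gene at its own locus from any introduced sequence. HSPC did not show this order: Ngfr had 92.0 and 92.6 TPM in double mutant HSPC, against 159.8 and 136 TPM in wild type HSPC. Tef, a transcription factor of the PAR bZIP family with clock-driven expression, had 43.4 and 35.1 TPM in the double mutant, against 2.32 and 1.74 TPM in wild type, with close double mutant libraries. Cd34, which encodes a sialomucin of stem and progenitor cells, had 195 and 40.9 TPM in the double mutant, against 5.34 and 5.37 TPM in wild type, so that library 1 was several times library 2 yet both lay above wild type. Tmem176b, which encodes a membrane protein of myeloid and dendritic cells, had 173 and 93.5 TPM in the double mutant, against 15.6 and 14.8 TPM in wild type. Phf11b, a PHD finger gene, had 33.0 and 25.5 TPM in the double mutant, against 1.99 and 3.14 TPM in wild type. The 12 genes at the top of the upward list had adjusted p-values of 0.161 to 0.266, and all 12 passed in the fit of 12 libraries.

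**Figure D2:**
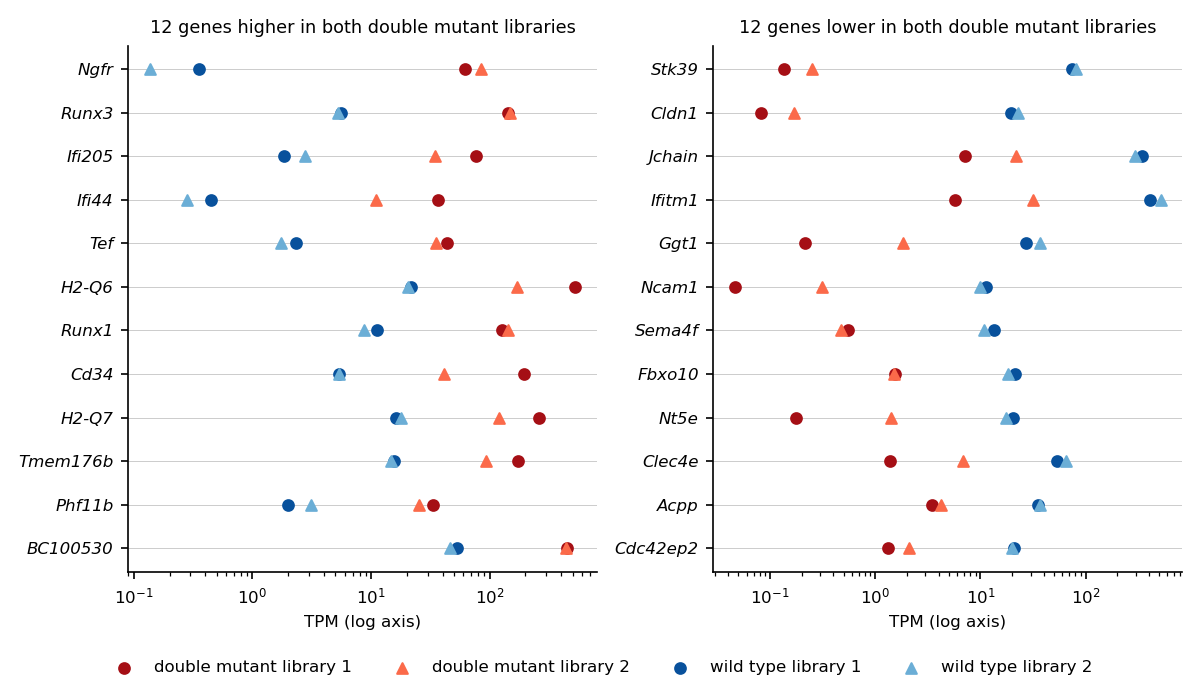
TPM as deposited (log axis) in each Ly6G+ library for the 12 genes furthest above and the 12 furthest below wild type by the distance between the nearest libraries, with red for the double mutant, blue for wild type, circles for library 1 and triangles for library 2. Red and blue points are separated in each of the 24 genes, and Runx3, Tef, Runx1, BC100530 and Fbxo10 have close double mutant libraries in these unscaled values.

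Among the lower genes, Stk39 (ENSMUSG00000027030, chromosome 2, 68210445 to 68472268) stood furthest from wild type. Stk39 encodes SPAK, a kinase that regulates cation-chloride cotransporters. It had 0.137 and 0.25 TPM in the double mutant libraries, against 74.1 and 82.0 TPM in the wild type libraries, a log2 fold change of -6.39 with an SE of 0.23 (limma, adjusted p = 0.0575), the smallest adjusted p of the comparison. In HSPC the order was the same, with 0.367 and 0.0899 TPM in double mutant HSPC, against 62.8 and 70.5 TPM in wild type HSPC. Cldn1, which encodes the tight junction protein claudin-1, had 0.0817 and 0.17 TPM in the double mutant, against 19.4 and 23.001 TPM in wild type. Its HSPC values were 0.0653 and 0.0657 TPM in double mutant HSPC, against 9.49 and 9.67 TPM in wild type HSPC. Both genes were thus near 0 in the double mutant of both cell types.

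Other genes of the downward list encode surface proteins and enzymes. Nt5e, the gene of the adenosine-producing ectoenzyme CD73, had 0.177 and 1.41 TPM in the double mutant, against 20.3 and 17.5 TPM in wild type. Ggt1, a gamma-glutamyltransferase of glutathione breakdown, had 0.214 and 1.83 TPM in the double mutant, against 27.1 and 36.9 TPM in wild type. Clec4e encodes Mincle, a C-type lectin that senses fungal and mycobacterial glycolipids, and had 1.38 and 6.78 TPM in the double mutant, against 54.0 and 65.4 TPM in wild type. In these genes library 1 was the lower of the double mutant libraries. Fbxo10, an F-box gene of a ubiquitin ligase, had 1.55 and 1.49 TPM in the double mutant, against 21.2 and 18.3 TPM in wild type, with near-equal double mutant libraries. Sema4f, a semaphorin gene, had 0.55 and 0.477 TPM in the double mutant, against 13.5 and 10.8 TPM in wild type. The adhesion gene Ncam1 was at 0.0461 and 0.312 TPM in the double mutant and 11.3 and 9.93 TPM in wild type. Acpp and Cdc42ep2, genes of an acid phosphatase and of an effector of the GTPase Cdc42, completed the list with log2 fold changes of -3.47 and -3.46. The 12 lowest genes had adjusted p-values of 0.0575 to 0.266 and all 12 passed in the fit of 12 libraries.

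Antigen presentation genes lay higher in the double mutant. MHC class II molecules present peptides from outside the cell, and 5 of 10 measured genes of this list were at least 2-fold higher in both double mutant libraries and 0 lower. The share of all genes that were 2-fold higher was 1.66%. The median log2 fold change of the list was 1.57. H2-Ab1, a chain of the class II molecule, had 911 and 347 TPM in the double mutant libraries, against 97.3 and 114 TPM in the wild type libraries. H2-Eb1, another chain, had 664 and 288 TPM in the double mutant, against 76.6 and 94.9 TPM in wild type. Library 1 was the higher of the double mutant libraries for both, and neither overlapped wild type. H2-DMb1 and H2-DMa, which load peptides, had log2 fold changes of 1.58 and 1.85. Cd74, the invariant chain, and Ciita, the activator of class II transcription, were apart from wild type by less than 2-fold after scaling. Cd74 had 1855 and 690.3 TPM in the double mutant, against 221 and 280.3 TPM in wild type. Ciita had 22.1 and 6.37 TPM in the double mutant, against 2.06 and 2.55 TPM in wild type. The groups overlapped for H2-Oa, H2-Ob and H2-DMb2, where library 1 alone was high. H2-Ob, for example, had 178 and 6.65 TPM in the double mutant, against 8.09 and 9.40 TPM in wild type. The class II genes had adjusted p-values of 0.252 or more, and 6 passed in the fit of 12 libraries. The summed TPM of 5 dendritic cell markers lay on the same side, with 189 and 51.9 TPM in the double mutant, against 11.6 and 10.1 TPM in wild type. Different genes carried that sum in the double mutant libraries, Siglech in library 1 and Cd209a in library 2. Siglech, a plasmacytoid dendritic cell lectin, had 158 and 11.2 TPM in the double mutant, against 4.41 and 4.17 TPM in wild type. Cd209a, another lectin gene, had 0.79 and 31.3 TPM in the double mutant and 4.52 and 3.003 TPM in wild type, so that it lay below wild type in library 1, and of the 4 markers that passed the filter 3 were apart on the high side. The 10 markers of B lineage and plasma cells summed to 299.8 and 841 TPM in the double mutant, against 10731 and 9662 TPM in wild type. The part of such cells in the class II levels was not tested, and in a bulk library fewer cells of a type and less RNA per cell cannot be told apart.

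MHC class I genes present peptides from inside the cell. 3 of 16 measured genes were 2-fold higher in both double mutant libraries, 12 were apart from wild type on the high side and the list median was 0.84. The shares over all genes were 1.66% for 2-fold higher and 31.5% for apart on the high side. H2-Q6 and H2-Q7, neighbouring genes of the non-classical Qa-2 antigens, led the list. H2-Q6 had 528 and 171 TPM in the double mutant, against 21.6 and 20.3 TPM in wild type, a log2 fold change of 3.17 with an SE of 0.43 (limma, adjusted p = 0.236). H2-Q7 had 262 and 120.0 TPM in the double mutant, against 16.2 and 17.95 TPM in wild type, a log2 fold change of 2.70 with an SE of 0.29 (limma, adjusted p = 0.218). These genes are near-identical copies, and how reads were divided among H2-Q genes is not stated. Psmb10, a subunit of the immunoproteasome, had 96.4 and 64.2 TPM in the double mutant, against 20.4 and 22.0 TPM in wild type. The classical gene H2-K1 had 1456 and 1019 TPM in the double mutant, against 411 and 414 TPM in wild type, while the classical gene H2-D1 had 1151 and 1369.6 TPM in the double mutant and 1211 and 1152 TPM in wild type. H2-K1 was thus apart from wild type on the high side and H2-D1 was not, with log2 fold changes of 0.94 and -0.53. Tap1, which moves peptides into the endoplasmic reticulum, had a log2 fold change of 0.87, and its partner Tap2 one of -0.27.

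Genes of the interferon response list lay on both sides of wild type. Of its 30 genes, 4 were 2-fold higher in both double mutant libraries and 3 lower, against 1.66% and 3.11% of all genes. Its median log2 fold change was 0.25. Ifi44, an interferon-induced gene, had 36.7 and 11.04 TPM in the double mutant libraries, against 0.443 and 0.28 TPM in the wild type libraries. Mx1, an interferon-induced gene of the GTPase family, had 48.0 and 22.8 TPM in the double mutant, against 4.65 and 3.79 TPM in wild type. Bst2, which tethers budding virus and is also a marker of plasmacytoid dendritic cells, had 489.9 and 131 TPM in the double mutant, against 28.3 and 26.1 TPM in wild type. Library 1 was at least as high as library 2 in these 3 genes and in Mx2. Against this, Ifitm1, Ifitm2 and Ifitm6, of a family whose products block virus entry at membranes, were lower. Ifitm1 had 5.76 and 31.7 TPM in the double mutant, against 414 and 519 TPM in wild type, a log2 fold change of -5.53 with an SE of 0.99 (limma, adjusted p = 0.266). Ifitm6 had 339 and 2798 TPM in the double mutant, against 5819 and 7783 TPM in wild type, and Ifitm2 had 249.9 and 733 TPM in the double mutant, against 1371 and 1646 TPM in wild type. Library 2 lay between library 1 and wild type in all 3. Ifitm3 had 308 and 830 TPM in the double mutant and 698 and 910 TPM in wild type. Its groups overlapped in deposited TPM and were barely apart after scaling. Several classical members, among them Rsad2, Oas2 and Ifit3, overlapped between the groups after scaling. In unscaled TPM, 10 members were 2-fold higher and 2 lower.

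Stefin A genes encode small inhibitors of cysteine cathepsins that are expressed in mouse granulocytes. The list of 8 measured genes also holds Cstb, which is not a stefin A gene. In this list 3 genes were 2-fold higher in both double mutant libraries, against 1.66% of all genes, and 0 lower. The list median, with Cstb, was 1.49. Cstb had 109 and 149 TPM in the double mutant and 79.5 and 80.9 TPM in wild type, and overlapped after scaling. BC100530 had 451 and 437 TPM in the double mutant libraries, against 52.6 and 46.6 TPM in the wild type libraries. Stfa2 had 545 and 637 TPM in the double mutant, against 71.3 and 60.1 TPM in wild type, and BC117090 had 5.03 and 6.18 TPM in the double mutant, against 0.618 and 0.544 TPM in wild type. Stfa3 was just under 2-fold apart after scaling, with 389.7 and 400.1 TPM in the double mutant, against 108 and 77.1 TPM in wild type. In deposited TPM the double mutant libraries were close to each other for Stfa2, Stfa3 and BC100530. Stfa2l1, a further member, had 786 and 2063 TPM in the double mutant and 1079 and 999 TPM in wild type, where the groups overlapped. The members other than Cstb are close copies in 1 gene cluster, and the division of reads among them is uncertain.

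**Figure D3:**
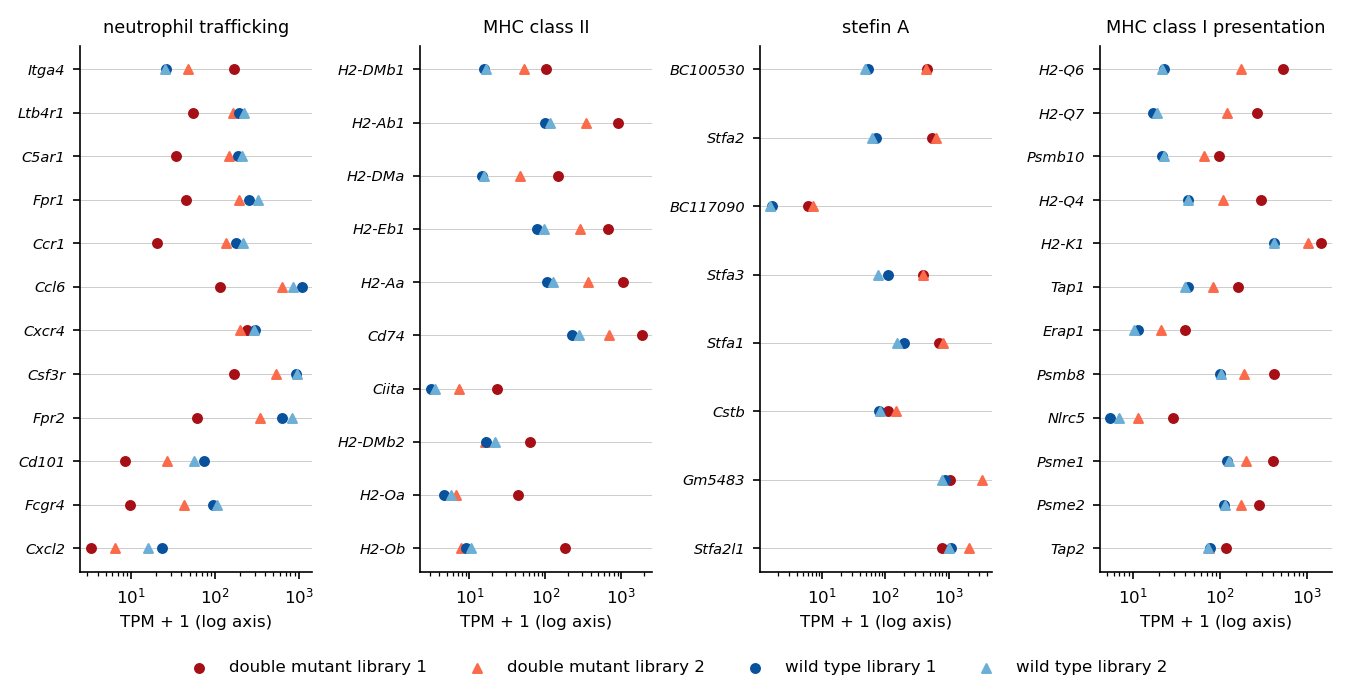
TPM + 1 as deposited (log axis) in each Ly6G+ library for up to 12 measured members of each of 4 lists, those with the widest distance between the nearest libraries of the groups, ordered from the highest to the lowest such distance after scaling, with red for the double mutant, blue for wild type, circles for library 1 and triangles for library 2. Double mutant points lie to the right of wild type for the top class II, stefin A and class I genes, and to the left for the lowest trafficking genes, where library 1 lies furthest out.

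Genes by which mature neutrophils sense and follow signals were lower in the double mutant. Of 21 measured trafficking genes, 5 were at least 2-fold lower in both double mutant libraries, 18 were apart from wild type on the low side and 0 were 2-fold higher. Of all genes, 3.11% were 2-fold lower and 31.1% apart on the low side. The list median was -1.83. Csf3r, the receptor of granulocyte colony-stimulating factor, had 171 and 533 TPM in the double mutant libraries, against 919.6 and 962 TPM in the wild type libraries. Fpr2, a formyl peptide receptor, had 59.8 and 344 TPM in the double mutant, against 637 and 831 TPM in wild type. Fcgr4, an activating Fc receptor, had 8.62 and 42.1 TPM in the double mutant, against 95.4 and 105 TPM in wild type. In all 3, library 2 lay between library 1 and wild type. Cd101, a surface protein of mature neutrophils, had 7.43 and 26.02 TPM in the double mutant, against 73.0 and 55.2 TPM in wild type, and the chemokine gene Cxcl2 had 2.30 and 5.44 TPM in the double mutant, against 22.7 and 14.8 TPM in wild type. Cxcr4, the receptor that holds neutrophils in the marrow, had 241 and 199 TPM in the double mutant, against 300.1 and 289 TPM in wild type. Itga4, an integrin chain, was the 1 member apart on the high side, with 170.3 and 47.4 TPM in the double mutant, against 25.5 and 24.8 TPM in wild type. In unscaled TPM, 3 trafficking genes were 2-fold lower and the list median was -1.22.

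Granule genes separated the double mutant libraries from each other. Of 20 secondary and tertiary granule genes, 2 were 2-fold lower in both double mutant libraries and 14 were apart on the low side after scaling. The shares over all genes were 3.11% and 31.1%. In deposited TPM, Mmp8, Camp, Pglyrp1 and Cd177, which are among those apart, overlapped between the groups. The list median was -2.89 in library 1 and -0.43 in library 2 relative to the wild type mean. Hp, which encodes the haemoglobin-binding protein haptoglobin, had 60.3 and 696 TPM in the double mutant libraries, against 1775 and 2241 TPM in the wild type libraries. Padi4, the enzyme that citrullinates histones, had 83.1 and 265 TPM in the double mutant, against 466 and 427 TPM in wild type. Its distance is 2-fold only after scaling. Ltf, lactoferrin, had 2765 and 9149 TPM in the double mutant and 7037 and 7306 TPM in wild type, so that in deposited TPM library 1 lay below and library 2 above wild type. Chil3 showed the same order, with 1772 and 8777 TPM in the double mutant and 3243 and 4751 TPM in wild type. Among 11 primary granule genes, whose list median changed sign without scaling, Cst7, a cystatin, had 117 and 34.8 TPM in the double mutant, against 11.5 and 10.5 TPM in wild type. Prss57, a granule protease and with Nkg7 one of the lower members, had 3.58 and 2.04 TPM in the double mutant, against 7.57 and 7.81 TPM in wild type. Mpo, Elane, Prtn3 and Ctsg overlapped after scaling, each with library 2 above and library 1 below the wild type mean. Mpo had 293 and 508 TPM in the double mutant and 169 and 163 TPM in wild type. The 6 promyelocyte markers summed to 772 and 1507 TPM in the double mutant, against 590 and 609 TPM in wild type. Ly6g itself had 389 and 1448 TPM in the double mutant, against 2017 and 2026 TPM in wild type, a log2 fold change of -2.05 with an SE of 0.97 (limma, adjusted p = 0.379). The calprotectin genes S100a8 and S100a9 together took 7.23% and 24.8% of TPM in the double mutant, against 34.5% and 33.5% in wild type.

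After scaling, all 7 measured NADPH oxidase genes, which produce the respiratory burst, lay lower in the double mutant without overlap, as did 31.1% of all genes, and 1 was 2-fold lower. In deposited TPM, Cyba and Ncf4 overlapped between the groups. That gene, the proton channel gene Hvcn1, had 72.1 and 47.0 TPM in the double mutant, against 82.5 and 92.8 TPM in wild type, a distance that is 2-fold only after scaling. Cybb, the catalytic subunit, had 203 and 522 TPM in the double mutant, against 604 and 618 TPM in wild type. Ncf1, a cytosolic subunit, had 398 and 772 TPM in the double mutant, against 861 and 939 TPM in wild type, with library 2 close to wild type in both. The neutrophil marker sum given above was also lowest in double mutant library 1 and intermediate in library 2. The part of the neutrophil content in these groups of genes was not tested.

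Inflammatory genes that stood apart in both libraries were mostly lower, and signalling genes lay on both sides. Of 23 NF-kB and inflammation genes, 5 were 2-fold lower and 1 higher, against 3.11% and 1.66% of all genes. The list median was -0.45, and 0.15 in unscaled TPM. Il1b, the gene of interleukin-1 beta, had 83.9 and 186 TPM in the double mutant libraries, against 648 and 343 TPM in the wild type libraries. Il1rn, the antagonist of its receptor, had 26.9 and 95.7 TPM in the double mutant, against 206 and 191 TPM in wild type. Il1r2, the decoy receptor, had 15.4 and 49.3 TPM in the double mutant, against 112 and 180.2 TPM in wild type. The agonist, the antagonist and the decoy thus lay on the same side of wild type. Nlrp3, the inflammasome sensor, had 6.75 and 15.01 TPM in the double mutant, against 33.3 and 27.6 TPM in wild type. Icam1, an adhesion molecule, was the 1 higher gene, with 32.8 and 14.8 TPM in the double mutant, against 4.27 and 4.99 TPM in wild type. Dusp1, a phosphatase that switches off MAP kinases, had 30.4 and 29.3 TPM in the double mutant, against 289 and 114 TPM in wild type, with close double mutant libraries in deposited TPM and a wide gap between the wild type libraries. The cell cycle activator Ccnd1, on the same RAS-MAPK list, had 122.8 and 17.97 TPM in the double mutant, against 2.73 and 2.73 TPM in wild type. Of the CBL family and cytokine receptor list, whose median changed sign without scaling, Grap, an adaptor of receptor signalling, had 49.1 and 44.7 TPM in the double mutant, against 5.01 and 5.06 TPM in wild type, a log2 fold change of 2.42 with an SE of 0.24 (limma, adjusted p = 0.193). Cd2ap, an adaptor that binds CBL, had 25.3 and 11.2 TPM in the double mutant, against 3.43 and 3.23 TPM in wild type. In deposited TPM Grap was even across the double mutant libraries while Ccnd1 and Cd2ap were higher in library 1.

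Glycolysis genes lay mostly lower and ribosomal protein genes mostly higher, nearly all by less than 2-fold between the nearest libraries. Of 20 glycolysis genes, 2 were 2-fold lower and 14 apart on the low side, against 3.11% and 31.1% of all genes. The median was -0.91. Ldha, lactate dehydrogenase, had 338 and 248 TPM in the double mutant, against 454 and 432 TPM in wild type. The lactate exporter Slc16a3 had 57.8 and 143 TPM in the double mutant, against 384 and 244 TPM in wild type. Neither was 2-fold lower in unscaled TPM. Asns, asparagine synthetase and a target of the amino acid response, had 0.363 and 2.39 TPM in the double mutant, against 13.9 and 16.8 TPM in wild type, the lowest of the endoplasmic reticulum stress list. Ribosomal protein genes were higher without overlap for 67 of 77, against 31.5% of all genes, and none of them 2-fold in both libraries. They took 17.2% and 5.42% of TPM in the double mutant, against 3.98% and 3.41% in wild type. All 13 respiratory chain genes encoded in mitochondria were higher without overlap, with a median of 0.43, while the 77 measured nuclear ones had a median of 0.06. None of 30 cell cycle genes was 2-fold apart in either direction.

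**Figure D4:**
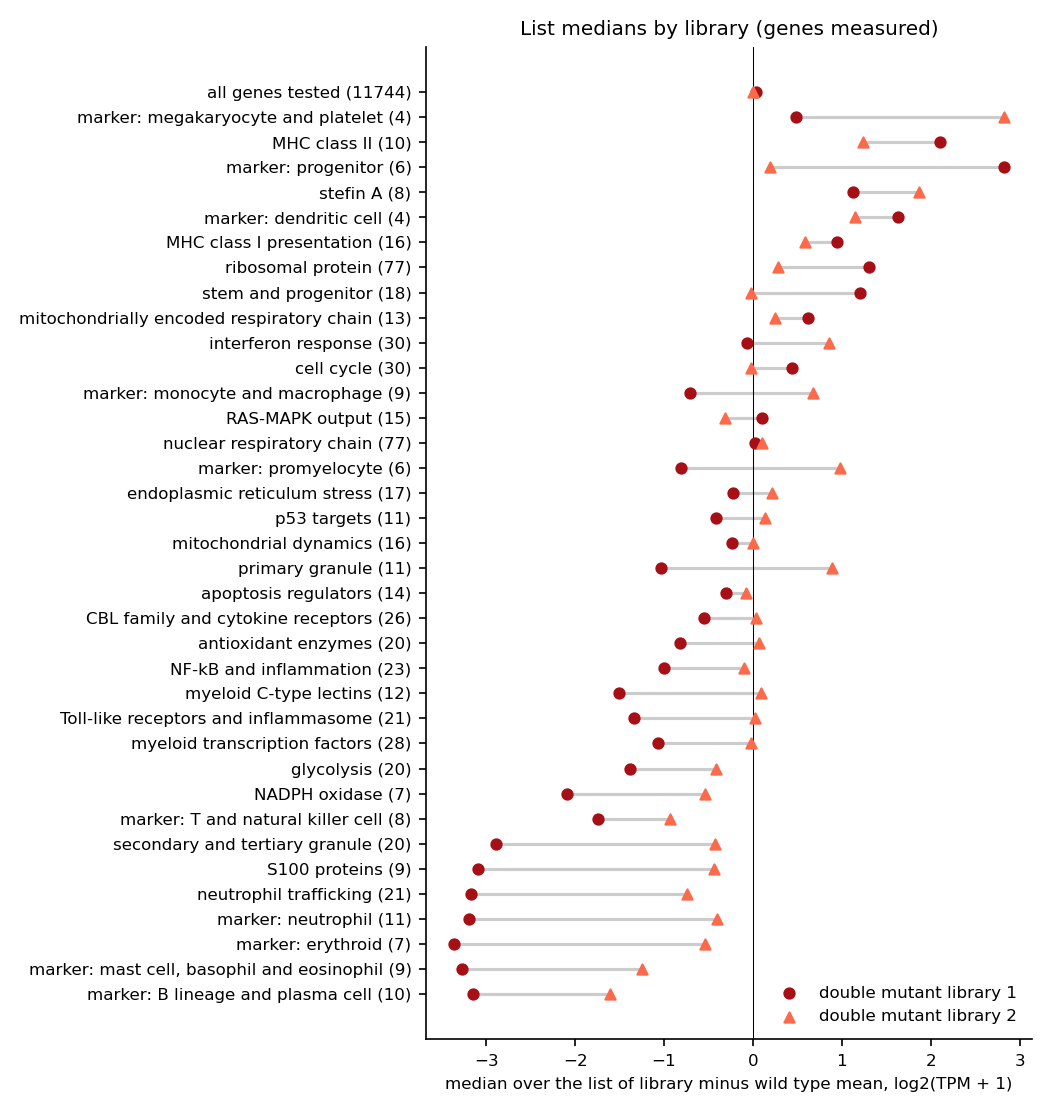
For each list, the median over its measured genes (number in brackets) of the log2(TPM + 1) difference from the wild type mean is shown for double mutant library 1 (circle) and library 2 (triangle), with a grey line joining them and all 11744 genes on the top line. MHC class II, stefin A and class I medians lie above 0 in both libraries, neutrophil lists lie below 0 in both with library 1 further out, and progenitor and megakaryocyte markers are each high mainly in 1 library.

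Transcription factors and progenitor genes differed mostly through library 1, where their list medians were -1.06 and 1.21 relative to the wild type mean, while both were -0.02 in library 2. Of 28 myeloid transcription factors, 2 were 2-fold higher and 1 was lower, against 1.66% and 3.11% of all genes, so the lower count is near that share. The 2 higher were Runx3 and Runx1, itself a mutated gene. The 1 lower was Ets1, a factor of lymphoid cells, with 15.2 and 27.0 TPM in the double mutant, against 57.1 and 57.5 TPM in wild type. Irf8, which directs monocyte and dendritic cell fates, had 667 and 91.7 TPM in the double mutant, against 41.0 and 36.8 TPM in wild type. Myc had 67.4 and 18.6 TPM in the double mutant, against 8.54 and 6.15 TPM in wild type. Both were higher in library 1 than in library 2, and the distance of library 2 from wild type was under 2-fold after scaling. Flt3, a cytokine receptor of progenitors and dendritic cells, had 215 and 11.8 TPM in the double mutant, against 4.31 and 2.78 TPM in wild type, and the stem cell factor gene Meis1 had 24.5 and 2.31 TPM in the double mutant, against 0.405 and 0.557 TPM in wild type. The 6 progenitor markers summed to 488 and 65.4 TPM in the double mutant, against 27.3 and 27.6 TPM in wild type.

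Genes that differed most between the double mutant libraries included markers of several cell types. Dntt, the terminal transferase of lymphoid precursors, had 789 and 15.1 TPM in the double mutant and 31.2 and 12.7 TPM in wild type. Ly6d, a surface protein of lymphoid precursors, had 331 and 13.2 TPM in the double mutant and 26.4 and 27.1 TPM in wild type. Siglech, with the values given above, was likewise highest in library 1. The 6 genes furthest above library 1 in library 2 were S100a13, Prss34, Hp, F13a1, Ppbp and Hist2h2aa1. Prss34 had 2.97 and 59.6 TPM in the double mutant, against 249 and 162 TPM in wild type. Hp, with the values given above, was likewise below wild type in both and lowest in library 1. S100a13 had 0.0555 and 29.7 TPM in the double mutant and 14.7 and 71.3 TPM in wild type. Ppbp and Pf4, chemokines of platelet granules, were above wild type in both and highest in library 2, though Pf4 was not among these 6. Ppbp had 7.37 and 75.0 TPM in the double mutant, against 1.81 and 1.73 TPM in wild type, and Pf4 had 16.8 and 131 TPM in the double mutant, against 3.05 and 3.31 TPM in wild type. F13a1, a transglutaminase of monocytes and platelets, had 22.1 and 202 TPM in the double mutant and 30.8 and 31.2 TPM in wild type.

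Markers of other cell types were read as sums over lists and by member. For comparison, 3.11% of all genes were 2-fold lower and 31.1% apart on the low side. Of 10 B lineage and plasma cell markers, 5 were 2-fold lower in both double mutant libraries and 9 were apart on the low side after scaling. Nearly all of their sum in wild type was Igkc, the kappa light chain constant region, which had 197 and 757 TPM in the double mutant, against 10211 and 9231 TPM in wild type. Pax5, a B lineage transcription factor, overlapped, with 25.5 and 1.99 TPM in the double mutant and 9.42 and 4.62 TPM in wild type. Jchain, which joins IgM and IgA chains, had 7.12 and 22.0 TPM in the double mutant, against 346 and 293 TPM in wild type. Basophil, mast cell and eosinophil markers summed to 55.9 and 218 TPM in the double mutant, against 599 and 445 TPM in wild type, and Fcer1a, the IgE receptor chain, had 0.0626 and 1.08 TPM in the double mutant, against 17.7 and 11.9 TPM in wild type. Of the 9 measured members of that list, 5 were 2-fold lower, 8 were apart on the low side after scaling and Ccr3 overlapped. Megakaryocyte and platelet markers summed to 30.4 and 196 TPM in the double mutant, against 15.4 and 11.1 TPM in wild type. The low sum of library 1 rests mostly on Pf4, and Gp9 and Itga2b overlapped after scaling. T and natural killer cell markers summed to 130.3 and 28.0 TPM in the double mutant, against 41.6 and 48.6 TPM in wild type, an overlap carried by Klrd1, with 88.5 and 8.15 TPM in the double mutant, against 5.73 and 5.59 TPM in wild type, and by Lck in library 1. Of the 8 measured members, 3 (Cd3d, Ncr1 and Gzma) were 2-fold lower in both double mutant libraries, 6 were apart on the low side and 1 on the high side after scaling. Erythroid markers summed to 112 and 605 TPM in the double mutant, against 688 and 543 TPM in wild type, which overlap in deposited TPM, although all 7 members were apart on the low side after scaling. Monocyte and macrophage markers summed to 572 and 1925 TPM in the double mutant, against 1637 and 1723 TPM in wild type, also with overlap. Most of that sum in wild type was Ly6c2, which was apart on the low side, with 284 and 1044 TPM in the double mutant, against 1460 and 1516 TPM in wild type. Ccr2 and Ms4a6c were apart on the high side after scaling, and the other members overlapped. Ccr2 had 63.4 and 283 TPM in the double mutant, against 28.6 and 30.5 TPM in wild type. No marker that defines these lists was at 0 in all 4 libraries, and the part of these cells in the results was not tested.

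**Figure D5:**
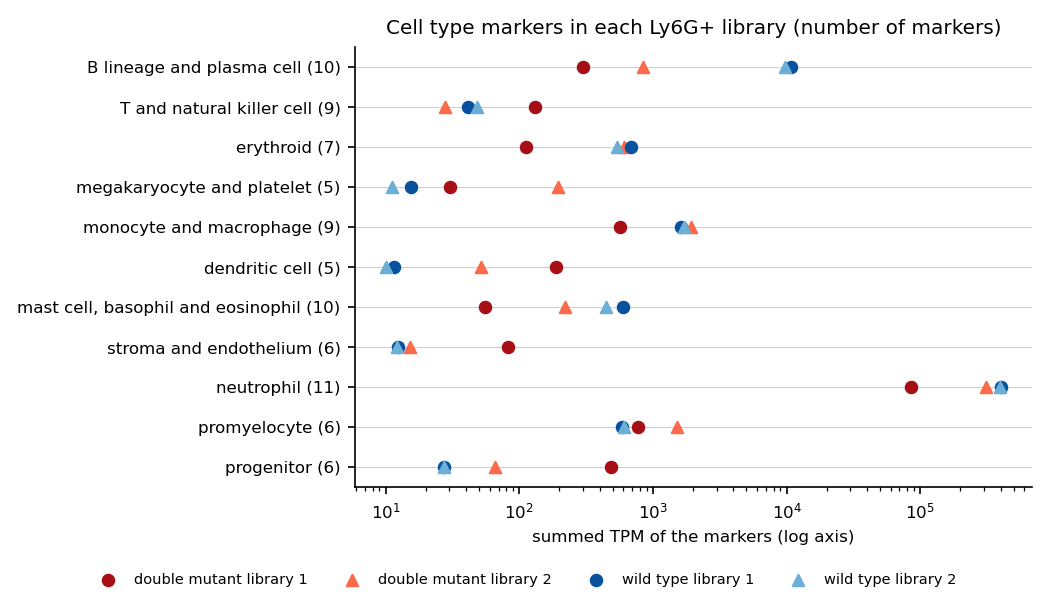
Summed TPM (log axis) of the markers of 11 cell types in each Ly6G+ library, with the number of markers in brackets, red for the double mutant, blue for wild type, circles for library 1 and triangles for library 2. Neutrophil markers make up most of the summed TPM in all 4 libraries, B lineage sums are lower and dendritic cell and progenitor sums higher in both double mutant libraries.

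The same pair of genotypes in HSPC asked which differences are found in both cell types. Of 11618 genes compared in HSPC, 240 (2.07%) were at least 2-fold higher in both double mutant libraries and 606 (5.22%) lower. Among the higher genes, 26 were shared with Ly6G+ cells, 13.3% of the 195 and 10.8% of the 240. They include Runx1, Runx3, Cd34, Ccnd1, Grap, Cst7, BC100530 and Stfa2. Among the lower genes, 150 were shared, 41.1% of the 365 and 24.8% of the 606, and include Stk39, Cldn1, Jchain, Ifitm1, Ncam1, Fbxo10, Acpp and Hp. Only 164 of the 195 and 262 of the 365 genes passed the filter in HSPC. In the opposite direction, Ngfr was higher in double mutant Ly6G+ cells and lower in double mutant HSPC, and Dusp1 and Clec4d were lower in double mutant Ly6G+ cells and higher in double mutant HSPC. Dusp1 had 20.6 and 16.7 TPM in double mutant HSPC, against 3.17 and 3.37 TPM in wild type HSPC.

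The difference between the cell types was tested as an interaction term in a fit of 8 libraries. Of 12639 genes 13 passed (0.103%), 11 with a higher and 2 with a lower value in Ly6G+ cells, and 1226 had an unadjusted p under 0.05. Without double mutant library 1, 991 genes passed, without double mutant library 2, 4717, and without wild type libraries 1 and 2, 1 and 2 genes. Of the 24 genes furthest from wild type in Ly6G+ cells, Ngfr alone passed, with a log2 fold change that was 6.82 ± 0.47 (SE) higher in Ly6G+ cells than in HSPC (limma, adjusted p = 0.00893). The adjusted p was 0.0848 without wild type library 1 and 0.0717 without wild type library 2. Among the others are Ighg2b, Ighg1, Ighg2c and Iglc2, immunoglobulin genes that were lower in the double mutant of both cell types. Ighg2b, for example, had log2 fold changes of -2.88 in Ly6G+ cells and -10.97 in HSPC. Mecom, a transcription factor gene of stem cells, had 0.165 and 0.165 TPM in double mutant Ly6G+ cells, against 0.053 and 0.011 TPM in wild type Ly6G+ cells, and was lower in double mutant HSPC by a log2 fold change of -5.55.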

How the data were processed

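The authors' deposited table holds TPM for 28987 Ensembl genes in 12 libraries. The tools named, per the submitters' processing notes, are kallisto, bcl2fastq and CASAVA 1.8, and the build is mm10. The kallisto version, the annotation, the joining of transcripts and the read numbers are not given in the sources used here, so depth is unknown and no counting interval can be given. Symbols were found for 27458 identifiers, and coordinates are from GENCODE for GRCm38.

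Genes with at least 1 TPM in at least 2 of the 4 Ly6G+ libraries were kept. TPM were scaled with trimmed mean factors (TMM, trimming 0.3 of log ratios and 0.05 of levels), log2(TPM + 1) was fitted with limma 3.58.1 in R 4.3.3 (trended, robust variance) and the Benjamini-Hochberg adjustment ran over every gene kept. The added 1 compresses fold changes of genes near 1 TPM. All tests are two-sided. Libraries are from individual mice per the labels' protocols. Alternatives were other scalings, pseudocounts, filters, weights, pooled fits, a replicate block and leaving out each library. The script was tested on simulated data.

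Named genes are Cbl, Runx1, Ly6g, Ngfr, the 12 furthest in each direction by the distance between the nearest libraries (at least 10 TPM, no predicted or immunoglobulin genes), up to 4 per list and direction, and 6 per direction between double mutant libraries. Further members of a list were named after their values were seen, and a few single genes are not reported here. Members, lists and rules were chosen with earlier results of these data known.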

Additional observations from a re-analysis of the deposited data

Results flagged for a closer look

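The double mutation effect on Ngfr differed between Ly6G+ cells and HSPC, by a log2 fold change difference of 6.82 in the interaction term (limma, adjusted p = 0.00893). Ngfr had 62.1 and 83.7 TPM in the double mutant libraries, against 0.351 and 0.136 TPM in the wild type libraries of Ly6G+ cells, and 92.0 and 92.6 TPM in double mutant HSPC, against 159.8 and 136 TPM in wild type HSPC. The table does not separate Ngfr at its own locus from any introduced sequence. With 2 libraries per group, no group was large enough for a search for samples far from the others.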

How the results depend on the processing

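The number of genes passing the test in Ly6G+ cells was 0 and stayed 0 with RLE, upper-quartile or no scaling, a pseudocount of 0.1, no filter, a filter of 5 TPM and moderation with no trend and not robust. It was 2 with a pseudocount of 5, 1 with array weights, 529 in a fit of 8 libraries and 979 in a fit of all 12, and 1 to 6975 when 1 library was left out. A group left with 1 library is assumed to vary like the others. Of the 26 genes followed singly (the 24 at the top of the lists, Cbl and Ly6g), 1 passed with a pseudocount of 5, 1 with array weights, 24 in either pooled fit and 0 to 24 without 1 library. Genes 2-fold apart in both double mutant libraries numbered 560, against 1481 at 1.5-fold, 89 at 4-fold, 232 with a pseudocount of 5 and 693 to 3587 without 1 library. In unscaled TPM there were 621, of which 442 were higher. The interaction term passed for 13 genes, 31 with a pseudocount of 5 and 1 to 4717 without 1 library. With the replicate block, 31 genes passed, 16 of the 26 and 7 for the interaction term. The deviations of same-numbered libraries correlated at 0.219 over 2 pairs, and with 2 pairs and no label that ties the numbers to a shared litter, batch or day, whether they pair the libraries was not settled. No fold change of these genes changed sign under any alternative run, and in 114 cases a gene passed that did not in the fit of 4 libraries. List medians moved by more than the replicate spread in 34 cases. For Ngfr the interaction term missed the threshold in 2 alternatives. Depth is unknown, so what it limits cannot be given.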

Other observations

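Beyond the lists above, 5 gene families were looked at after their values were seen, so their counts are descriptions. Of 12 measured genes of the Ifi200 family, a cluster of interferon-inducible DNA sensors on mouse chromosome 1, 8 were at least 2-fold higher in both double mutant libraries and 0 lower, also in unscaled TPM, against 1.66% of all genes. Ifi205 had 76.7 and 34.8 TPM in the double mutant libraries, against 1.86 and 2.78 TPM in the wild type libraries. Ifi213 had 10.5 and 9.37 TPM in the double mutant, against 0.755 and 0.491 TPM in wild type, and Mndal had 183 and 49.99 TPM in the double mutant, against 12.6 and 13.1 TPM in wild type. Ifi204 had 15.1 and 66.1 TPM in the double mutant and 27.8 and 31.3 TPM in wild type, and overlapped, as did, after scaling, Aim2, the inflammasome sensor of cytosolic DNA. These genes are close copies, and how reads were divided among them is not stated. Of 14 measured interferon-inducible GTPases, which attack the vacuoles of intracellular microbes, 6 were 2-fold higher and 0 lower. Iigp1 had 12.2 and 5.62 TPM in the double mutant, against 0.249 and 0.285 TPM in wild type, and Tgtp2 had 80.6 and 21.1 TPM in the double mutant, against 4.89 and 2.70 TPM in wild type. Gbp2, Gbp7 and Irgm2 overlapped between the groups after scaling. In HSPC, Ifi205 had 5.58 and 2.06 TPM in double mutant HSPC, against 0.608 and 0.842 TPM in wild type HSPC.

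Of 7 measured immunoglobulin constant region genes, 6 were 2-fold lower in both double mutant libraries, against 3.11% of all genes. Ighm had 121 and 134 TPM in the double mutant, against 1330.5 and 1483 TPM in wild type, and Ighg2b had 12.2 and 5.48 TPM in the double mutant, against 42.4 and 46.7 TPM in wild type. Ear2, a ribonuclease gene of eosinophils, had 12.7 and 31.0 TPM in the double mutant, against 138 and 150.1 TPM in wild type. Tmem176a, the neighbour of Tmem176b, had 109 and 47.7 TPM in the double mutant, against 10.2 and 10.8 TPM in wild type.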
